A study of Mus musculus with 12 samples.

Results

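Ccl21a, Ackr4, Lyve1, Stab1, Stab2, Prox1 and Pdpn are genes of lymphatic endothelium and of the chemokine CCL21 that this endothelium secretes. These 7 genes, of the 77175 in the deposited count table, were picked by symbol, and all 7 were found. They were proposed with results of these data in view, among them the all-or-none counts of Ccl21a, so their own levels are given as a description and without a test.

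Lymphatic vessels drain fluid and cells from tissues, and in skin tumors they are the route by which dendritic cells and T cells leave for the draining lymph node. Their endothelial cells are specified by the transcription factor PROX1 and carry the hyaluronan receptor LYVE1 and the sialomucin podoplanin on their surface. They also secrete CCL21, which binds the receptor CCR7 on dendritic cells and on naive and central memory T cells and guides them along the vessel wall. Several of these genes are known in other cells too: LYVE1 and stabilin-1 in tissue macrophages, stabilin-2 in liver and spleen sinusoids, podoplanin in fibroblasts and some tumor cells, and PROX1 in liver, lens and neural progenitors.

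The 12 mouse libraries formed 4 groups of 3 and measured polyadenylated RNA. The OVA T cell libraries were CD8+ cells recovered with CD8 antibody beads from tumors of B16-F10 melanoma carrying an ovalbumin transgene, and the B16-F10 T cell libraries were CD8+ cells recovered in the same way from tumors of the line without it. The OVA tumor libraries and the B16-F10 tumor libraries were melanoma cells sorted from these tumors by fluorescence of the calcium sensor GCaMP6s. The transferred T cells were OT-I cells of the C57BL/6J background, whose receptor recognises an ovalbumin peptide, and were activated with anti-CD3 and anti-CD28 beads before transfer. All hosts were NOD-SCID mice, which lack T and B cells of their own but keep vessels, fibroblasts and myeloid cells, and all received OT-I cells. Both tumor lines carried GCaMP6s, and ovalbumin and GCaMP6s were each driven by a lentiviral EF1A promoter, and the B16-F10 line carried no second vector. At 2 days after the T cells were given, tumors were removed and dissociated with collagenase and hyaluronidase. Whether the libraries of 1 group are separate mice is not in the labels, so a p-value here covers the spread among 3 libraries that may be technical replicates.

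Library totals ran from 17203672 to 24267494 counts in the OVA T cell libraries, from 15494683 to 19296278 in the B16-F10 T cell libraries, from 18754546 to 33263730 in the OVA tumor libraries and from 18948947 to 23213586 in the B16-F10 tumor libraries. Levels are counts scaled to the library total (CPM), as mean ± SD of 3 libraries. The bead-selected libraries held far more than T cells. The summed level of 12 blood endothelial markers was 12288 ± 37.7 CPM in OVA T cell libraries, 12960 ± 38.2 CPM in B16-F10 T cell libraries, 5294 ± 36.9 CPM in OVA tumor libraries and 333 ± 1.59 CPM in B16-F10 tumor libraries, where Eng alone gave 289 ± 2.14 CPM and 2 of the 12 were at 0 counts. The summed level of 12 T cell markers was 993 ± 1.54, 972 ± 5.08, 133 ± 4.29 and 4.49 ± 0.479 CPM in the same order, with 4 of the 12 at 0 counts in the B16-F10 tumor libraries. That of 12 melanoma markers was 110 ± 3.17, 246 ± 3.80, 10000.2 ± 8.79 and 23496 ± 48.5 CPM. In such bulk samples, fewer cells of a type and less RNA per cell cannot be told apart.

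Against this, the 7 genes fell into 2 patterns. Ccl21a, Lyve1, Stab1 and Stab2 were highest in the B16-F10 T cell libraries and at or near 0 in the B16-F10 tumor libraries, where 8 of the 12 blood endothelial markers were under 1 CPM. Prox1 and Pdpn were highest in the B16-F10 tumor libraries. Ackr4 was close to the limit of counting everywhere. The data thus go against the name lymphatic endothelium for Prox1 and Pdpn, which were highest where blood endothelial markers were nearly absent, and Ackr4 was too low for a check.

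Ccl21a (ENSMUSG00000094686), the chemokine of the group, lies on chromosome 4 among near-identical copies. Since the copies decide which reads can be counted for it, their coding sequences were compared in the transcripts of the mouse build GRCm38 (GENCODE vM21), which is not the build GRCm39 that the counts come from. Ccl21a, on the minus strand, and Ccl21b, Ccl21d and Ccl21f, on the plus strand, each had a coding sequence of 402 bases. Each of the 3 copies differed from Ccl21a at 2 bases, T84A in codon 28 and C194T in codon 65, counted from the start codon with the Ccl21a base first. The second of these is the difference behind the names CCL21 serine and CCL21 leucine for the proteins. Coding bases 164 to 224 read as follows, 5′ to 3′, with base 194 in capitals.
Ccl21a: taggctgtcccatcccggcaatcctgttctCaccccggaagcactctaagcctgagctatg
Ccl21b: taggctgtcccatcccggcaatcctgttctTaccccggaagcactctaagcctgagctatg
Ccl21d: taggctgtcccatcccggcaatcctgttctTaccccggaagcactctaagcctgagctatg
Ccl21f: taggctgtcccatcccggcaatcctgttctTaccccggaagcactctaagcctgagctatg
The stretch around the first difference, coding bases 54 to 114, is shown for Ccl21a and Ccl21f, the copies that had counts, with base 84 in capitals.
Ccl21a: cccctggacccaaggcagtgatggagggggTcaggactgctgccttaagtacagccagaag
Ccl21f: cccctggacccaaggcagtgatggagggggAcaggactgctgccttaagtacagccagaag
Of the 771 windows of 100 bases in the 870-base Ccl21a transcript, 50.3% also occurred in transcripts of 4 other genes and 49.7% occurred in Ccl21a alone. How the authors' counting treated reads that match several copies is not given in the sources used here, so counts of Ccl21a and Ccl21f may have been split between the copies.

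Ccl21a was all or none. It had 0 counts in each of the 3 OVA T cell libraries, against 495, 461 and 404 counts in the B16-F10 T cell libraries, or 25.7, 26.0 and 26.1 CPM. In the tumor libraries the order was the other way round. The OVA tumor libraries had 114, 75 and 76 counts, or 3.43, 4.00 and 3.06 CPM, against 0 counts in each B16-F10 tumor library. Every B16-F10 T cell library was above every OVA tumor library, and both groups were above those at 0. With a floor of 3 counts over a group, which is 0.0461 CPM in OVA T cell and 0.0473 CPM in B16-F10 tumor libraries, the level was at least 562-fold lower in OVA than in B16-F10 T cell libraries. It was at least 72.9-fold higher in OVA than in B16-F10 tumor libraries. Between fractions of the same tumor label, it was at least 74.7-fold lower in OVA T cell than in OVA tumor libraries, and at least 548-fold higher in B16-F10 T cell than in B16-F10 tumor libraries. These bounds cover counting error only.

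Ccl21a was picked with its 0 counts known, so its place among all genes is a description and no support. Of 9269 genes with at least 10 CPM in the B16-F10 T cell libraries, Ccl21a was the 1 gene with 0 counts in all 3 OVA T cell libraries, and of 14637 genes with at least 1 CPM there were 9. In the tumor libraries, 393 of the 14878 genes with at least 1 CPM in the OVA group had 0 counts in all 3 B16-F10 libraries, so that the 0 counts of Ccl21a there were shared with many genes.

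The copies had few counts. Ccl21b and Ccl21d had 0 counts in all 12 libraries, where 3 counts in a library is 0.0902 to 0.194 CPM. These 0 counts cannot show whether either was expressed. The coding sequences of Ccl21b, Ccl21d and Ccl21f were identical, and the Ccl21b transcript held only those 402 bases. If reads matching several copies were left out, Ccl21b could not be counted at all. Ccl21f had 0 counts in the OVA T cell libraries, against 55 in the B16-F10 T cell libraries, and 8 in the OVA tumor libraries against 1 in the B16-F10 tumor libraries. Its level was at least 22.7-fold lower in OVA than in B16-F10 T cell libraries. It made up 3.89% of the counts of Ccl21a and Ccl21f together in B16-F10 T cell libraries (exact Clopper-Pearson 95% interval 2.94 to 5.03%) and 2.93% in OVA tumor libraries (1.27 to 5.69%), and these intervals overlap. Ccl21f thus went with Ccl21a in the groups where either was counted, apart from the single count in B16-F10 tumor libraries.

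Ackr4 (ENSMUSG00000079355) encodes the atypical receptor that takes up CCL21, CCL19 and CCL25 and degrades them. It had 2, 1 and 1 counts in OVA T cell libraries and 0, 3 and 1 in B16-F10 T cell libraries, and 11, 4 and 11 in OVA tumor libraries and 7, 5 and 8 in B16-F10 tumor libraries. Its mean level was 0.0610 ± 0.0202, 0.0780 ± 0.0856, 0.329 ± 0.115 and 0.322 ± 0.104 CPM in that order of groups. It failed the filter on low counts in every fit. Both OVA comparisons overlapped between groups, and the ratio of OVA to B16-F10 tumor libraries was 1.07 with a 95% counting interval of 0.576 to 2.03. It was lower without overlap in T cell than in tumor libraries, on 4 counts in each T cell group. The fold was 5.50 for OVA (95% counting interval 1.91 to 21.7) and 4.14 for B16-F10 libraries (1.39 to 16.6). In GRCm38, 479 of its 5380 exonic bases overlap exons of Acad11, an acyl-CoA dehydrogenase gene with 562, 408, 1544 and 2645 counts in the same groups. The Ackr4 counts were 0.707%, 0.971%, 1.66% and 0.750% of those of both genes together. The strand setting of the counting is not given in the sources used here, so reads of the 2 genes may not have been told apart.

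**Figure D1:**
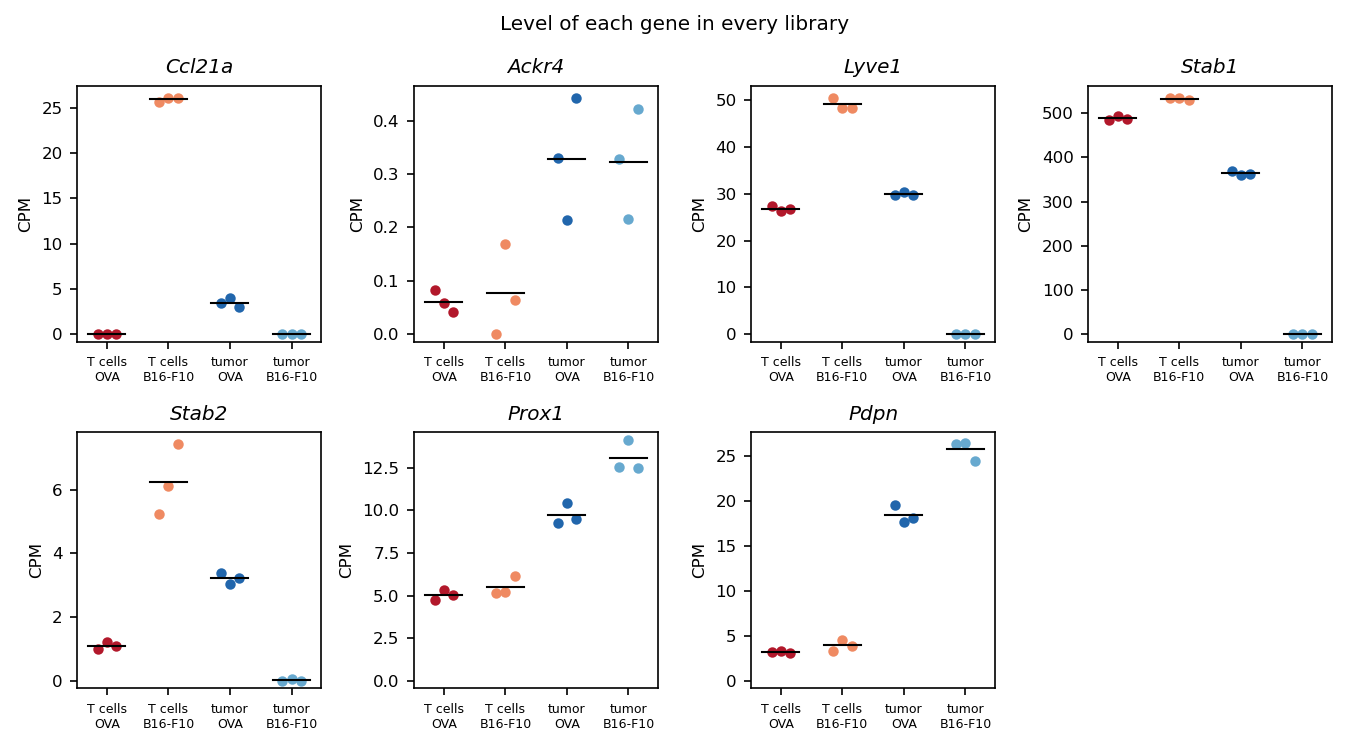
Level of the 7 genes in each of the 12 libraries, in CPM on linear axes with a separate scale per gene. Points are libraries and bars are the means of 3. Ccl21a is at 0 in all OVA T cell and B16-F10 tumor libraries and between 25.7 and 26.1 CPM in B16-F10 T cell libraries, while Prox1 and Pdpn are highest in tumor libraries.

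Lyve1 (ENSMUSG00000030787) encodes the hyaluronan receptor through which dendritic cells dock to lymphatic vessels. It had 27.4, 26.2 and 26.8 CPM in OVA T cell libraries, against 50.4, 48.3 and 48.3 CPM in B16-F10 T cell libraries. The groups did not overlap, and the level in OVA T cell libraries was lower, with a fitted log2 fold change of -0.81 (SE 0.0465). The OVA tumor libraries had 29.6, 30.4 and 29.7 CPM, against 0, 1 and 1 counts in the B16-F10 tumor libraries. The ratio of these tumor groups was 947 with a 95% counting interval of 262 to 7820. OVA T cell and OVA tumor libraries had nearly the same level: the fitted log2 difference was -0.02 (SE 0.0456), and it was 0.0865 with median-ratio size factors.

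Stab1 (ENSMUSG00000042286) encodes stabilin-1, a scavenger and adhesion receptor of lymphatic and sinusoidal endothelium and of macrophages, and had the highest level per kilobase of the 7 genes in each group but the B16-F10 tumor libraries. It had 486, 495 and 487 CPM in OVA T cell libraries, against 534, 535 and 531 CPM in B16-F10 T cell libraries. This difference was small, with a fitted log2 fold change of -0.07 (SE 0.0148), although no library of one group reached the other. The OVA tumor libraries had 369, 361 and 362 CPM, against 8, 16 and 13 counts in the B16-F10 tumor libraries, or 0.584 ± 0.180 CPM. The fitted log2 fold change between the tumor groups was 9.44 (SE 0.0529).

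Stab2 (ENSMUSG00000035459) encodes stabilin-2, an endocytic receptor that clears hyaluronan and other ligands. It had 24, 21 and 26 counts in OVA T cell libraries, or 0.989, 1.22 and 1.10 CPM, against 101, 108 and 115 counts in B16-F10 T cell libraries, or 5.23, 6.10 and 7.42 CPM. The OVA T cell libraries were lower without overlap, with a fitted log2 fold change of -2.44 (SE 0.184). The OVA tumor libraries had 113, 57 and 80 counts, or 3.22 ± 0.179 CPM, against 1 count in all B16-F10 tumor libraries together. The ratio of the tumor groups was 206 with a 95% counting interval of 36.7 to 8181. The fold between the T cell groups was thus larger for Stab2 than for its paralog Stab1.

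Prox1 (ENSMUSG00000010175), which encodes the transcription factor of lymphatic identity, was lower in T cell than in tumor libraries. It had 4.74, 5.35 and 5.00 CPM in OVA T cell libraries, against 5.13, 5.20 and 6.13 CPM in B16-F10 T cell libraries, and these groups overlapped. The OVA tumor libraries had 9.23, 10.4 and 9.49 CPM, against 12.6, 14.1 and 12.5 CPM in the B16-F10 tumor libraries. The fitted log2 fold change between the tumor groups was -0.27 (SE 0.0789). Between fractions it was -0.81 (SE 0.0964) for OVA T cell against OVA tumor libraries and -1.01 (SE 0.0972) for B16-F10 T cell against B16-F10 tumor libraries. In GRCm38, 133 of its 8390 exonic bases overlap the noncoding gene Prox1os.

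Pdpn (ENSMUSG00000028583) encodes podoplanin, the ligand of the platelet receptor CLEC-2. It had 3.17, 3.31 and 3.14 CPM in OVA T cell libraries, against 3.37, 4.58 and 3.87 CPM in B16-F10 T cell libraries, which do not overlap but lie close together. The OVA tumor libraries had 19.6, 17.6 and 18.1 CPM, against 26.3, 26.5 and 24.4 CPM in the B16-F10 tumor libraries. The fitted log2 fold change was -0.24 (SE 0.155) between the T cell groups and -0.30 (SE 0.0565) between the tumor groups. Between fractions it was -2.40 (SE 0.0923) for OVA and -2.47 (SE 0.0909) for B16-F10 libraries.

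For Prox1 and Pdpn the lower level in OVA tumor libraries depended on what it was set against. The melanoma marker sum was 10000.2 ± 8.79 CPM in OVA and 23496 ± 48.5 CPM in B16-F10 tumor libraries, and scaled to the counts of these markers the log2 fold changes turned to 0.79 for Prox1 and 0.76 for Pdpn. That scaling moved the median of all genes to 1.10, so both genes were still below that median. The part of the melanoma cells in either level was not tested.

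Counted over the 7 genes, OVA T cell libraries were lower without overlap for 5, higher for 0 and overlapped B16-F10 T cell libraries for 2, where 33.5% of all 16536 genes tested were lower and 21.0% higher in that way. OVA tumor libraries were higher without overlap for 4, lower for 2 and overlapped B16-F10 tumor libraries for 1, beside 36.4% higher and 46.2% lower of 17418 genes. OVA T cell libraries were higher than OVA tumor libraries for 1 gene, Stab1, and lower for 6, beside 32.6% and 46.4% of 18562 genes. B16-F10 T cell libraries were higher than B16-F10 tumor libraries for 4 and lower for 3, beside 39.8% and 46.7%. In each comparison 6 of the 7 passed the filter on low counts, and since these values chose the genes, nothing is read from the counts.

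Per kilobase of exon (lengths from GRCm38), the levels could be set against each other within a group. In B16-F10 T cell libraries Stab1 stood at 51.8 ± 0.213 CPM per kb, Ccl21a at 29.8 ± 0.271, Lyve1 at 16.8 ± 0.422, Pdpn at 2.17 ± 0.334, Stab2 at 0.714 ± 0.126, Prox1 at 0.654 ± 0.0667 and Ackr4 at 0.0145 ± 0.0159. Stab2 and Prox1 there did not differ beyond their spread. Without Ccl21a, the order in OVA T cell libraries was Stab1 at 47.5 ± 0.468, Lyve1 at 9.18 ± 0.211, Pdpn at 1.77 ± 0.0510, Prox1 at 0.600 ± 0.0364, Stab2 at 0.126 ± 0.0132 and Ackr4 at 0.0113 ± 0.00375 CPM per kb. In OVA tumor libraries Stab1 was at 35.4 ± 0.391 CPM per kb, and Lyve1 at 10.2 ± 0.144 and Pdpn at 10.1 ± 0.553 lay within their spread, ahead of Ccl21a at 4.02 ± 0.545 and Prox1 at 1.16 ± 0.0730. In B16-F10 tumor libraries the order was headed by Pdpn at 14.2 ± 0.621 and Prox1 at 1.55 ± 0.109 CPM per kb, and the other members were each under 0.1.

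The amount of endothelial RNA differed between fractions, so the 4 genes of the first pattern were also set against the counts of the 12 blood endothelial markers. Per 1000 such counts, Ccl21a was at 0 in OVA T cell libraries, 2.00 ± 0.0207 in B16-F10 T cell libraries and 0.660 ± 0.0882 in OVA tumor libraries. Lyve1 was at 2.18 ± 0.0449, 3.78 ± 0.0928 and 5.65 ± 0.0934 in the same order. Stab2 was at 0.0899 ± 0.00962, 0.483 ± 0.0862 and 0.608 ± 0.0318.

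Stab1 was at 39.8 ± 0.460, 41.2 ± 0.0524 and 68.7 ± 0.470. Between the T cell groups, scaling to the endothelial markers gave log2 fold changes of -2.42 for Stab2, -0.79 for Lyve1 and -0.05 for Stab1, close to those above. Against OVA tumor libraries, by contrast, Stab1 in OVA T cell libraries was higher in CPM and lower per endothelial count, with a log2 fold change of -0.79 under that scaling. The B16-F10 tumor libraries are left out here because most of their endothelial marker counts come from Eng.

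**Figure D2:**
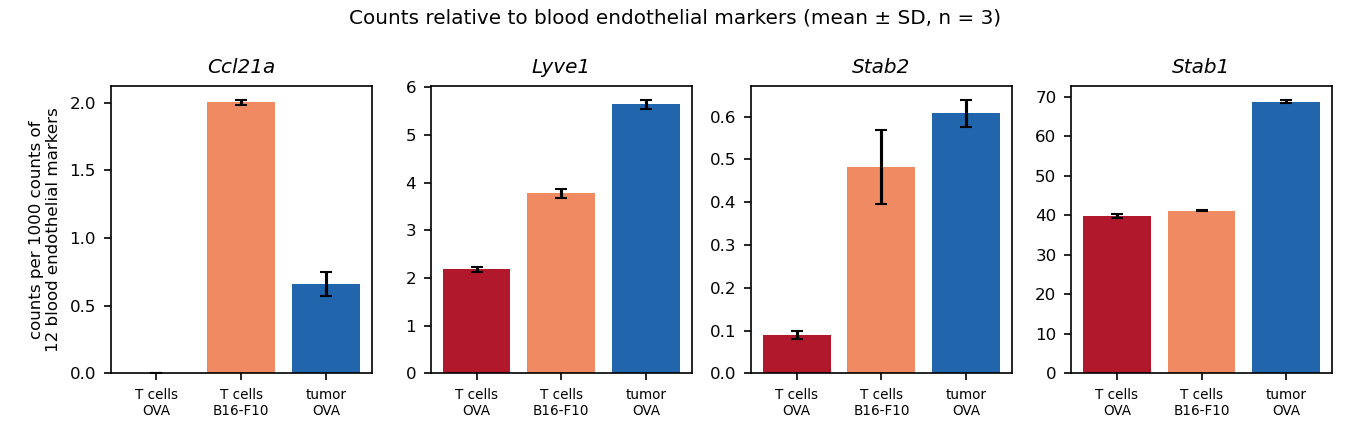
Counts of Ccl21a, Lyve1, Stab2 and Stab1 per 1000 counts of 12 blood endothelial markers, mean ± SD of 3 libraries, in OVA T cell, B16-F10 T cell and OVA tumor libraries. Ccl21a is 0 in OVA T cell libraries and 2.00 in B16-F10 T cell libraries, and Lyve1, Stab2 and Stab1 are highest in OVA tumor libraries.

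Other cell types known to carry these genes moved with the groups as well. The summed level of 12 macrophage markers was 821 ± 4.07 CPM in OVA T cell, 765 ± 4.60 in B16-F10 T cell, 2655 ± 10.5 in OVA tumor and 25.7 ± 1.38 in B16-F10 tumor libraries, with none of the 12 at 0 counts. That of 6 markers of LYVE1-positive macrophages was 75.5 ± 1.97, 94.5 ± 0.622, 433 ± 3.91 and 3.43 ± 0.420 CPM. That of 10 fibroblast markers was 5421 ± 44.6, 5841 ± 54.6, 2192 ± 8.88 and 85.5 ± 3.08 CPM. Most of the macrophage sum in the T cell groups was Cd14, at 577 ± 7.10 CPM in OVA and 437 ± 6.11 CPM in B16-F10 libraries. The list was mixed there: C1qa (20.3 ± 1.43 and 36.5 ± 1.16 CPM) and Lyz2 (77.2 ± 3.10 and 116 ± 3.30 CPM) were lower in OVA T cell libraries. Itgam was higher, at 26.1 ± 0.236 and 20.5 ± 2.27 CPM. The macrophage sums were highest in OVA tumor libraries, as were Lyve1, Stab2 and Stab1 per endothelial count, and the part of macrophages in these levels was not tested.

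Sources of CCL21 other than lymphatic vessels, and keratinocytes, were also represented by markers. The 4 high endothelial venule markers summed to 3.20 ± 0.392, 1.83 ± 0.700, 0.997 ± 0.155 and 0.118 ± 0.126 CPM in OVA T cell, B16-F10 T cell, OVA tumor and B16-F10 tumor libraries, with 2 of the 4 at 0 counts in the last group. This list was mixed in the T cell groups. Madcam1 had 0.309 ± 0.138 CPM in OVA and 0.993 ± 0.273 CPM in B16-F10 libraries. Fut7 (1.47 ± 0.284 and 0.408 ± 0.271 CPM), Glycam1 and Chst4 had higher means in OVA libraries. The 5 markers of fibroblastic reticular cells summed to 28.6 ± 0.789, 13.7 ± 1.28, 18.8 ± 0.550 and 0.0300 ± 0.0261 CPM. Most of the second sum in the T cell groups was Tnfsf11, at 27.3 ± 1.09 CPM in OVA and 7.73 ± 0.415 CPM in B16-F10 libraries. Cxcl13 in the same list had 0.802 ± 0.0956 and 4.55 ± 0.709 CPM there. In OVA tumor libraries most of it was Cxcl13, at 16.3 ± 0.404 CPM, with Tnfsf11 at 2.01 ± 0.209 CPM. The 7 keratinocyte markers summed to 0.780 ± 0.157, 3.78 ± 0.542, 23.0 ± 0.301 and 0.562 ± 0.114 CPM. The OVA effect on this sum had the direction of that on Ccl21a, Lyve1, Stab1 and Stab2 in both fractions. The sum was highest in OVA tumor libraries, whereas Ccl21a had 3.49 ± 0.474 CPM there and 25.9 ± 0.236 CPM in B16-F10 T cell libraries. The part of these cell types in the Ccl21a counts was not tested.

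Other genes of lymphatic identity were tested across the whole table. In OVA T cell libraries, 2 of the 13 tested genes of a 15-gene list rose and 10 fell against B16-F10 T cell libraries, where 23.7% of all genes were called higher and 22.4% lower (edgeR, adjusted p under 0.05). The median log2 fold change was -0.53 over the list and -0.0074 over all genes. Flt4, the receptor for the lymphatic growth factor VEGF-C, had 196 ± 1.88 CPM in OVA and 293 ± 3.52 CPM in B16-F10 T cell libraries and fell by 0.53 on the log2 scale (SE 0.0191, adjusted p = 1.6e-18). Nr2f2, the venous transcription factor that induces Prox1, had 25.9 ± 0.666 and 49.9 ± 1.91 CPM and fell by 0.89 (SE 0.0480, adjusted p = 1.06e-14).

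Maf, a lymphatic transcription factor that macrophages and T cells also express, fell by 0.90 (SE 0.0596, adjusted p = 7.98e-13). Itga9, an integrin chain needed for lymphatic valves, fell by 0.45 (SE 0.0235, adjusted p = 6.2e-15). The largest falls were in the less abundant genes Mmrn1, a secreted multimerin of lymphatic endothelium, and Reln, which encodes the glycoprotein reelin. Mmrn1 had 0.711 ± 0.242 CPM in OVA and 6.17 ± 0.536 CPM in B16-F10 T cell libraries, a log2 fold change of -2.998 (SE 0.2005, adjusted p = 1.04e-12). Reln had 0.815 ± 0.00921 and 3.99 ± 0.452 CPM, a log2 fold change of -2.23 (SE 0.205, adjusted p = 6.56e-10).

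The list did not move as one. Chosen after their values were seen, Nts and Ptx3 were the 2 genes that rose. They encode the peptide neurotensin and the soluble pattern receptor pentraxin 3, and rose by 0.61 (SE 0.0612, adjusted p = 3.31e-09) and 0.90 (SE 0.110, adjusted p = 1.24e-07) on the log2 scale. Sox18, a transcription factor upstream of Prox1 that blood endothelium shares, had 107 ± 3.53 CPM in OVA and 116 ± 2.76 CPM in B16-F10 T cell libraries and did not pass the test (log2 fold change -0.06, SE 0.0281, adjusted p = 0.083). Per 1000 endothelial counts, Sox18 stood at 8.72 ± 0.300 in OVA T cell, 8.93 ± 0.233 in B16-F10 T cell and 8.64 ± 0.271 in OVA tumor libraries, whereas Mmrn1 stood at 0.0579 ± 0.0195, 0.476 ± 0.0427 and 0.232 ± 0.0251. Scaled to the endothelial markers, the counts of identity genes called in OVA T cell libraries were again 2 higher and 10 lower.

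**Figure D3:**
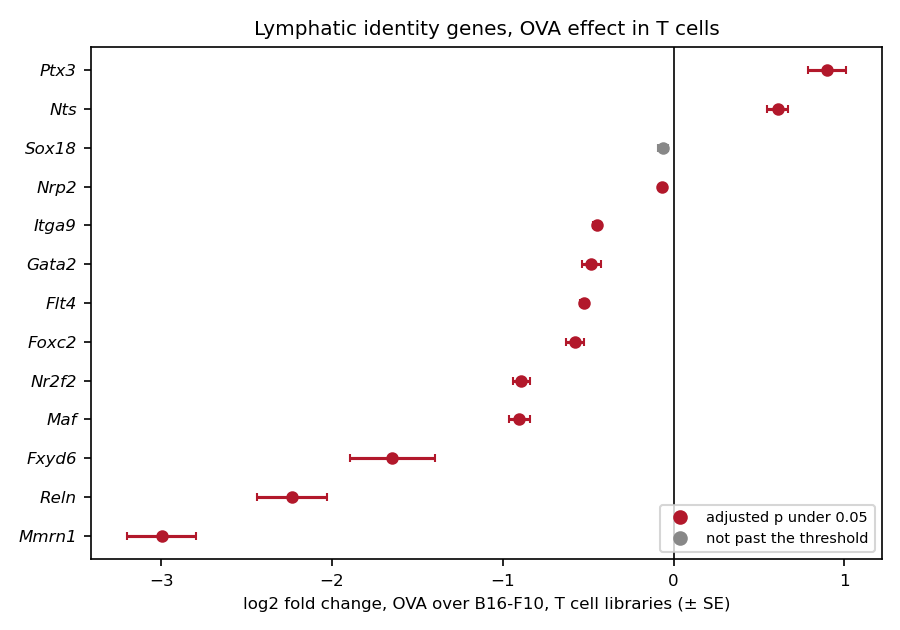
Fitted log2 fold change ± SE of the 13 tested lymphatic identity genes, OVA over B16-F10 T cell libraries, from edgeR on 6 libraries. Red points passed the adjusted p threshold of 0.05. Mmrn1, Reln and Fxyd6 lie lowest, Sox18 did not pass and Nts and Ptx3 lie above 0.

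In the tumor comparison 11 of 13 tested identity genes rose in OVA libraries and 0 fell, beside 42.0% and 37.4% of all genes. Sox18, Mmrn1, Reln, Fxyd6 and Nts had 0 or 1 count in B16-F10 tumor libraries. They passed the low-count filter through the OVA group alone, so they could only be called higher. The same applies to genes of the lists below that were nearly uncounted in B16-F10 tumor libraries. Flt4 had 117 ± 0.601 CPM in OVA and 2.96 ± 0.691 CPM in B16-F10 tumor libraries, a log2 fold change of 5.46 (SE 0.0624, adjusted p = 4.22e-27). Sox18, Mmrn1 and Reln had 0 counts in all B16-F10 tumor libraries and were higher in OVA tumor libraries by at least 973-fold, at least 26.1-fold and at least 19.3-fold. The median log2 fold change of the list was 5.29 as fitted and 4.27 with such genes at their bound, against 0.042 over all genes. The 2 genes that did not pass the test were Nr2f2, with 26.9 ± 1.62 CPM in OVA and 29.1 ± 1.16 CPM in B16-F10 tumor libraries (adjusted p = 0.373), and Itga9, with 116 ± 1.57 and 128 ± 0.554 CPM (adjusted p = 0.345).

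The blood endothelial marker sum was also higher in OVA tumor libraries, and its part in these calls was not tested. Scaled to those markers, which moved the median of all genes to -4.12, 6 of the 13 identity genes were called higher and 6 lower, but that scaling rests mostly on Eng in B16-F10 tumor libraries, at 289 of 333 CPM. The difference between the OVA effects in T cell and in tumor libraries was fitted over 12 libraries. It was negative for all 13 tested identity genes and positive for 0, beside 41.3% and 27.7% of all genes. The median difference was -5.98 over the list and -0.16 over all genes. Under endothelial scaling, with the same limit, the difference was higher for 6 and lower for 7.

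Between fractions, 7 of the 13 identity genes were higher and 2 lower in OVA T cell than in OVA tumor libraries, beside 37.3% and 40.2% of all genes. Both genes called lower are named here after their values were seen: Maf, at 13.9 ± 0.332 against 71.8 ± 1.04 CPM, and Mmrn1, at 0.711 ± 0.242 against 1.23 ± 0.126 CPM (adjusted p = 0.0337). The count lower was 1 with median-ratio size factors, with DESeq2, without OVA T cell replicate 2 or 3 and without OVA tumor replicate 1 or 3, and scaling to the endothelial markers gave 1 higher and 11 lower. In B16-F10 T cell against B16-F10 tumor libraries all 13 tested were higher and 0 lower, beside 45.5% and 40.4% of all genes. Here too, genes with 0 or 1 count in B16-F10 tumor libraries could only be called higher. Flt4 was higher by 6.85 on the log2 scale (SE 0.0463, adjusted p = 2.5e-35). With endothelial scaling, which there rests mostly on Eng, 6 were higher and 6 lower.

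Genes that act on lymphatic growth were mixed in T cell libraries. Of 10 tested, 3 rose and 2 fell in OVA libraries, beside 23.7% and 22.4% of all genes, with a median log2 fold change of -0.036. The count that rose was 2 with DESeq2, limma-voom, no filter and the filter of 1 CPM in 3 libraries. It was also 2 with any 1 library left out except OVA T cell replicate 3. The count that fell was 1 with DESeq2, with no filter, with endothelial scaling and without B16-F10 T cell replicate 1. Without B16-F10 T cell replicate 2 the count that fell was 3. Angpt2, a ligand of the receptor TIE2 that lymphatic remodelling needs, had 529 ± 4.77 CPM in OVA and 309 ± 3.92 CPM in B16-F10 T cell libraries, a log2 fold change of 0.83 (SE 0.0162, adjusted p = 1.43e-24). Calcrl and Ramp2, which form the adrenomedullin receptor, fell by 0.22 (SE 0.0220, adjusted p = 3.04e-09) and 0.08 (SE 0.0257, adjusted p = 0.0106). Vegfc, the ligand of Flt4, had 32.6 ± 3.03 and 34.5 ± 2.02 CPM and did not pass the test (adjusted p = 0.604). In tumor libraries all 8 tested genes rose, beside 42.0% of all genes (median 3.06), Vegfc among them with 18.4 ± 1.08 CPM in OVA and 13.6 ± 0.588 CPM in B16-F10 libraries.

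On the CCL21 and CCR7 axis, 3 of 16 tested genes rose and 7 fell in OVA T cell libraries, beside 23.7% and 22.4% of all genes, with a median log2 fold change of -0.063. Ccl21f was among the 7 that fell. Its counts may be split with those of Ccl21a, which chose the genes, so its call is not separate from them. Ccr7, the receptor of CCL21, was counted in both T cell groups, with 168 ± 2.28 CPM in OVA and 210 ± 4.95 CPM in B16-F10 libraries, and fell by 0.27 (SE 0.0220, adjusted p = 6.12e-11). It had 72.1 ± 3.19 CPM in OVA and 0.122 ± 0.0620 CPM in B16-F10 tumor libraries. Ccl19, the other ligand of CCR7, had 6 counts in OVA and 2 in B16-F10 T cell libraries and 0 in both tumor groups. The receptor was thus present in OVA T cell libraries in which neither ligand was counted above a few reads.

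Ltb, a lymphotoxin chain that induces CCL21 in lymphoid stroma, had 26.4 ± 1.07 CPM in OVA and 54.7 ± 3.25 CPM in B16-F10 T cell libraries, a log2 fold change of -0.99 (SE 0.0503, adjusted p = 2.85e-15). Ackr1, a chemokine-binding receptor of venules, rose, with 38.7 ± 0.479 and 12.4 ± 0.731 CPM and a log2 fold change of 1.69 (SE 0.0587, adjusted p = 6.2e-19). Cxcr4, the CXCL12 receptor, rose by 0.33 (SE 0.0203, adjusted p = 2.31e-13). In the tumor comparison 13 of 14 tested genes of the axis rose and 1 fell in OVA libraries, beside 42.0% and 37.4% of all genes, with a median of 8.07 as fitted and 6.71 with genes at 0 counts at their bound. The gene that fell, Ccl25, a ligand of CCR9 that ACKR4 also takes up, is named after its values were seen and had 4.41 ± 0.365 CPM in OVA and 8.08 ± 0.391 CPM in B16-F10 libraries.

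LYVE1 and stabilin-2 bind hyaluronan, a matrix polysaccharide. Of 12 tested genes that make, cut or bind it, 5 rose and 4 fell in OVA T cell libraries, beside 23.7% and 22.4% of all genes, with a median log2 fold change of 0.13. With DESeq2, and without B16-F10 T cell replicate 2, the count that rose was 3. Has2, a hyaluronan synthase, had 48.2 ± 1.38 CPM in OVA and 18.8 ± 1.22 CPM in B16-F10 libraries, a log2 fold change of 1.41 (SE 0.0533, adjusted p = 4.56e-18). Cd44, a hyaluronan receptor of T cells and many other cells, rose by 0.56 (SE 0.0192, adjusted p = 4.33e-19), and Hyal2, a hyaluronidase, fell by 0.41 (SE 0.0578, adjusted p = 1.12e-06). In tumor libraries 8 of 13 rose and 3 fell in the OVA group, beside 42.0% and 37.4% of all genes (median 0.97), and Cd44 fell, at 424 ± 3.17 CPM in OVA against 728 ± 6.23 CPM in B16-F10 libraries.

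Of 9 tested scavenger receptor and sinusoidal genes, 7 fell and 1 rose in OVA T cell libraries, beside 22.4% and 23.7% of all genes, with a median log2 fold change of -0.27. Cd36, the fatty acid and thrombospondin receptor, fell by 0.27 (SE 0.0130, adjusted p = 1.18e-15). Msr1, a macrophage scavenger receptor, fell by 0.52 (SE 0.0706, adjusted p = 7.64e-07), and Dnase1l3, a secreted nuclease of sinusoidal endothelium and macrophages, fell by 0.86 (SE 0.124, adjusted p = 1.69e-06). The gene that rose was Oit3, named after its values were seen, with 1.51 ± 0.0206 CPM in OVA and 0.347 ± 0.0765 CPM in B16-F10 libraries. In tumor libraries all 9 tested rose in the OVA group, beside 42.0% of all genes (median 7.87), among them Mrc1, the mannose receptor of macrophages and lymphatic endothelium, with 197 ± 3.38 CPM in OVA and 0.414 ± 0.108 CPM in B16-F10 libraries.

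Of 6 genes whose proteins bind podoplanin, 4 rose and 0 fell in OVA T cell libraries, beside 23.7% and 22.4% of all genes, with a median log2 fold change of 0.16. Msn, the actin linker moesin, rose by 0.17 (SE 0.0123, adjusted p = 3.25e-12), and Cd9, a tetraspanin, rose by 0.37 (SE 0.0263, adjusted p = 4.31e-12). Clec1b, which encodes CLEC-2, had 3.28 ± 0.482 and 3.60 ± 0.566 CPM and did not pass the test. In tumor libraries 5 of 6 rose and 1 fell, beside 42.0% and 37.4% of all genes (median 0.54), the last being Rdx, the actin linker radixin, by 0.58 (SE 0.0188, adjusted p = 2.37e-18), beside the lower level of Pdpn there.

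Between the fractions of OVA tumors, 7 of 11 tested growth genes, 11 of 16 genes of the CCL21 and CCR7 axis, 6 of 13 hyaluronan genes, 4 of 10 scavenger and sinusoidal genes and 5 of 6 podoplanin partners were called higher in T cell than in tumor libraries, and 1, 4, 5, 5 and 1 lower, beside 37.3% higher and 40.2% lower of all genes. Ackr1 had 38.7 ± 0.479 CPM in OVA T cell and 3.21 ± 0.161 CPM in OVA tumor libraries, a log2 fold change of 3.71 (SE 0.0726, adjusted p = 3.35e-23). Mrc1 went the other way, with 35.3 ± 0.944 CPM in OVA T cell and 197 ± 3.38 CPM in OVA tumor libraries, a log2 fold change of -2.35 (SE 0.0302, adjusted p = 1.08e-28). Between B16-F10 T cell and B16-F10 tumor libraries the counts higher were 11, 15, 7, 9 and 4 and those lower were 0, 1, 3, 1 and 2, beside 45.5% and 40.4% of all genes. The axis counts include Ccl21f, called lower in T cell libraries for OVA and higher for B16-F10.

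The counts that include tumor libraries hold for levels set against all RNA. Scaled to the blood endothelial markers, which moved the median of all genes to -1.37, 1, 4, 2, 0 and 0 genes of these lists were called higher in OVA T cell than in OVA tumor libraries and 8, 9, 10, 9 and 5 lower. For B16-F10 tumor libraries these counts are not given, since Eng made up most of their marker sum.

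The genes most like each of the 7 were found over the 12 libraries as those with the smallest root-mean-square (RMS) difference of centred log2(CPM + 0.5) among 13611 candidates. No gene was close to Ccl21a: the nearest were Sync at an RMS of 1.16, Mmrn1 at 1.24 and Tnn at 1.43 log2 units. Sync, which encodes an intermediate filament protein, had 1.77 ± 0.153, 12.3 ± 1.52, 6.54 ± 0.483 and 0.242 ± 0.116 CPM in OVA T cell, B16-F10 T cell, OVA tumor and B16-F10 tumor libraries. Mmrn1 is one of the lymphatic identity genes above.

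Stab2 was also nearest to Sync, at 0.273, followed by Kcnn3 at 0.308 and Smoc2 at 0.423. Stab1 was nearest to Hspa1a at 0.199, Cd93 at 0.221 and Ly6e at 0.285, of which Cd93 is a marker of endothelium. Lyve1 was nearest to Siglech at 0.150, Ighm at 0.205 and Il7r at 0.213, genes known from plasmacytoid dendritic cells and lymphocytes. Its nearest genes were thus not those of Stab1 or Stab2.

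Prox1 was nearest to Bri3 at 0.0682, Gpaa1 at 0.0727 and Alg12 at 0.0735, and Pdpn to Morn4 at 0.0950, Naglu at 0.102 and Gorasp1 at 0.126. These follow the tumor fraction. For example, Naglu had 27.3 ± 0.384, 32.1 ± 1.23, 126 ± 3.72 and 191 ± 1.58 CPM in OVA T cell, B16-F10 T cell, OVA tumor and B16-F10 tumor libraries. Ackr4, whose offset log values hardly vary, was nearest to Ercc2 at 0.122, Lsm2 at 0.126 and Bclaf3 at 0.127. The measure rests on 4 groups, so that any gene with log2 changes of similar size between them comes close.

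**Figure D4:**
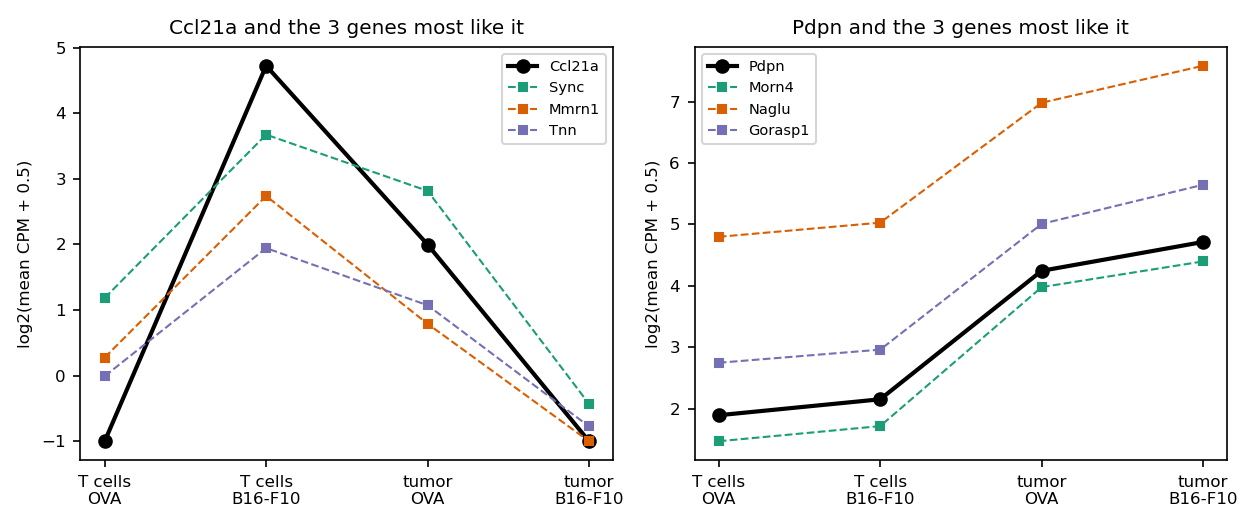
Group means as log2(CPM + 0.5) of Ccl21a (left) and Pdpn (right) with the 3 genes most like each, in the 4 groups. Ccl21a spans a wider range than Sync, Mmrn1 and Tnn, while Morn4, Naglu and Gorasp1 run nearly parallel to Pdpn.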

How the data were processed

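RNA from 12 libraries, 4 groups of 3, was sequenced by the authors after poly-T selection, per the labels' protocols. Reads were aligned to GRCm39 with HISAT2 2.0.5 and counted with featureCounts 1.6.0, per the submitters' processing notes. The deposited table holds raw read counts per Ensembl gene, with no normalization. Strand setting, treatment of reads matching several genes and annotation release are not given in the sources used here. Every count column was used. Of 162 genes in the lists, 161 were found by symbol.

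CPM values use library totals, between 15494683 and 33263730 counts. Tests used R 4.3.3 and edgeR 4.0.16: filterByExpr by group, TMM scaling, quasi-likelihood F tests, Benjamini-Hochberg adjustment over all genes tested and a threshold of 0.05. OVA effects were fitted on the 6 libraries of a fraction; contrasts between fractions and the difference between OVA effects were fitted on all 12. SEs were derived from the F statistic. The fits were tested on simulated data. Where a group had 0 counts, a fold is a bound against 3 counts over the group; with few counts, a ratio has an exact Clopper-Pearson 95% interval. PCR reads are not independent molecules, so intervals and floors cover counting error only. Coding sequences, exon lengths and overlaps come from GENCODE vM21 on GRCm38.

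The genes of interest and all lists were chosen with earlier results of these data known. Per list and comparison, the 4 genes with the smallest adjusted p and at least 1 CPM could be named, with genes at 0 counts in 1 group, a few anchor genes and the 3 genes most like each of the 7. The text uses a selection and says where others are named. Alternatives were DESeq2 1.42.0, edgeR with median-ratio size factors, limma 3.58.1 with voom, no filter, a filter of 1 CPM in 3 libraries, a replicate block, leaving out each library, scaling to endothelial or melanoma markers, and CPM on TMM library sizes. Within-group pairs of libraries differed by more than sampling noise (chi-square per gene 1.51 to 1.77 over 12 pairs). Each was counted as 1 library, but this spread cannot tell separate mice from technical replicates.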

Additional observations from a re-analysis of the deposited data

Results flagged for a closer look

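For Ccl21a, Stab1, Stab2 and Lyve1 the OVA effect ran in opposite directions in the 2 fractions, with no overlap between libraries in either. Singly, 33.5% of all genes tested were lower without overlap in OVA T cell libraries and 36.4% higher in OVA tumor libraries. The share with both was not counted. The difference was not tested because these values chose the genes, and nothing is read from the number of genes. The OVA minus B16-F10 difference of mean levels for Ccl21a was -25.9 CPM in T cell and 3.49 CPM in tumor libraries. In the same order it was -44.3 and 363 CPM for Stab1, -5.15 and 3.20 CPM for Stab2, and -22.2 and 29.9 CPM for Lyve1. The T cell libraries did not share the tumor libraries' near absence of endothelial markers under the B16-F10 label.

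For 8 of the 13 tested lymphatic identity genes, the OVA effects in T cell and in tumor libraries each passed edgeR's test, with opposite signs. Singly, 22.4% of all genes were called lower in OVA T cell libraries and 42.0% higher in OVA tumor libraries. The share of all genes with both calls was not counted, so nothing is read from the number 8. The difference between the effects passed as well, but this was nearly fixed in advance, since opposite calls picked these 8. Its values are thus a description and no further evidence. The effect in T cell libraries minus that in tumor libraries was -5.98 (log2, SE 0.0608, adjusted p = 5.93e-31) for Flt4 and -0.88 (SE 0.0229, adjusted p = 7.42e-22) for Nrp2. It was -6.17 (SE 0.188, adjusted p = 2.12e-20) for Foxc2, -3.02 (SE 0.116, adjusted p = 3.47e-18) for Gata2 and -2.62 (SE 0.0772, adjusted p = 1.01e-20) for Maf. Reln, Mmrn1 and Fxyd6 had 0 or 1 count in B16-F10 tumor libraries, so that only their adjusted p is given, at 6.56e-12, 1.65e-13 and 1.48e-09.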

How the results depend on the processing

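The all-or-none counts of Ccl21a use no model and no scaling. The OVA effect on the lymphatic identity list in T cell libraries gave 2 genes called higher and 10 or 11 lower with any 1 library left out. Scaling to endothelial markers gave 6 higher and 6 lower for OVA against B16-F10 tumor libraries, 1 higher and 11 lower for T cell against tumor libraries of OVA, 6 and 6 for those of B16-F10, and 6 and 7 for the difference between OVA effects, but in B16-F10 tumor libraries that scaling rests mostly on Eng. For T cell against tumor libraries of OVA, 1 identity gene was lower with median-ratio size factors and with DESeq2 in place of 2, and 1 to 2 with a library left out.

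Fitted log2 fold changes that changed sign were those of Stab1 for T cell against tumor libraries of OVA (-0.79 with endothelial scaling), Lyve1 there (0.0865 with median-ratio size factors, 0.0850 with DESeq2), Prox1 and Pdpn for the tumor groups (0.79 and 0.76 with melanoma scaling) and Prox1 for the T cell groups (-0.113 to 0.0122 with a library left out, above 0 without B16-F10 replicate 3). The cause was not tested.

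Replicate numbers did not pair the libraries: same-numbered libraries' deviations correlated between -0.0659 and 0.0440, and 4 of 12 correlated best with their own number. With the replicate number as a block, 3897 genes were called higher and 3679 lower in OVA T cell libraries, in place of 3912 and 3711, and 7214 and 6442 in OVA tumor libraries, in place of 7322 and 6516; the identity list had 2 and 10, and 11 and 0.

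Ackr4 had too few counts for any fit, and its differences between fractions rest on 4 counts in each T cell group. Stab2 rests on 21 to 115 counts where it was expressed.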
